A study of Caenorhabditis elegans with 2 samples.

Results

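The regions described here are the 346 nuclear genes that Ensembl release 115 annotates as snoRNA genes in Caenorhabditis elegans, out of 46890 nuclear genes in that annotation. Each gene was described by the strongest ChIP-seq summit within 200 bp of its annotated start, the summit being the base at which the authors' peak caller placed the maximum of a peak. Chromatin immunoprecipitation sequencing (ChIP-seq) had been carried out on whole worms of strain OP769 with an antibody against GFP. The strain carries the mutation unc-119(tm4063) and the insertion wgls769, which holds sptf-2::TY1::EGFP::3xFLAG together with a rescuing copy, unc-119(+). The worms were young adults of both sexes at 64.5 h, grown from starved L1 larvae, and there was 1 group of 2 biological replicates. The tagged protein is SPTF-2, a zinc finger protein of the Sp family. The tagged copy came from the transgene, and whole animals give an average over all tissues.

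Small nucleolar RNAs guide enzymes to bases of ribosomal and small nuclear RNA: the box C/D kind directs methylation of ribose, and the box H/ACA kind directs the change of uridine to pseudouridine. Many of their genes lie inside introns of protein-coding genes and can be cut out of the host's transcript. Some snoRNA genes of nematodes are instead known to be transcribed from promoters of their own, in part by RNA polymerase III. That polymerase also makes tRNA, and the promoter of a tRNA gene consists of short elements called box A and box B that lie inside the transcribed sequence.

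The letters around the strongest summits are shown because forms of box A and box B recurred in them. Each line holds the 100 bases on either side of a pooled summit, read 5′ to 3′ on the strand of the snoRNA gene from the RefSeq copy of assembly WBcel235 (ce11). These are the strongest pooled summits at snoRNA genes, except that those of ZK265.10 and T19B4.8 are not shown. Capitals mark box A forms (TGGCNNAG, TAGCNNAG, TGGTNNAG or TAGTNNAG), box B forms (GTTCGANNC or GTTCAANNC) on either strand, and the strings GGAACCC and TGTCGGC. These last strings were chosen after the sequences of the strongest regions had been seen. Positions count from the first base of the snoRNA gene, which is 0, and negative positions lie before it.
ZK994.7: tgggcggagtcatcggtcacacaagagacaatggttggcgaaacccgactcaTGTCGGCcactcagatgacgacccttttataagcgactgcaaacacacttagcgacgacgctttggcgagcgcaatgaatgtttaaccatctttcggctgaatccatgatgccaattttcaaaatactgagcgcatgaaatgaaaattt
C51F7.3: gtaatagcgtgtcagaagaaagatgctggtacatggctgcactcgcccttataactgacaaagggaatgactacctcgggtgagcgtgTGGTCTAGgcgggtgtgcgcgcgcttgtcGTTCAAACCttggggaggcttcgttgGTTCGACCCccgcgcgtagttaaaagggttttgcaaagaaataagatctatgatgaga
T03F7.8: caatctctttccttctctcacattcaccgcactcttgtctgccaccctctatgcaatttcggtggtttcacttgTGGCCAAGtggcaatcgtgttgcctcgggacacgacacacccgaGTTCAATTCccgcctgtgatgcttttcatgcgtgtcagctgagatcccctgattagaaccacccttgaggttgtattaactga
W03C9.9: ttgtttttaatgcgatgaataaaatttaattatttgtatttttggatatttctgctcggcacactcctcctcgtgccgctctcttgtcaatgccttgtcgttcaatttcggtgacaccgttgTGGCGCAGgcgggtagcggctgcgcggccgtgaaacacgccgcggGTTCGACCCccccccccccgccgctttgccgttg
B0334.12: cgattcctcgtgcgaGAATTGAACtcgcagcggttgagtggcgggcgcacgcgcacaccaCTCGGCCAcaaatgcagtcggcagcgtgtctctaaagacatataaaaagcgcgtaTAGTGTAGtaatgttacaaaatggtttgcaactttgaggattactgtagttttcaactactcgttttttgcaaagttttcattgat
W01C9.6: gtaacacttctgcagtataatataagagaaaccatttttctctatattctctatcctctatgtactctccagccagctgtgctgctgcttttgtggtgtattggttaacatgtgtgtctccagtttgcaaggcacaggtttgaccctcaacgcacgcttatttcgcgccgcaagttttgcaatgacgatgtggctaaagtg
C27H6.5: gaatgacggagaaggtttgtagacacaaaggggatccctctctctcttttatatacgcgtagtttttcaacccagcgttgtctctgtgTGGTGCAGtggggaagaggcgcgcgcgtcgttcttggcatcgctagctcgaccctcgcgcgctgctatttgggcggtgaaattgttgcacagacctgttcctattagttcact

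In T03F7.8 (window V:11314129-11314329, plus strand) a box A form began at -55 and a box B form at -11, on the strand of the gene. In W03C9.9 (II:11960704-11960904, plus strand) the same order was seen, with box A at -72 and box B at -27. Before C51F7.3 (V:12303521-12303721, plus strand) a box A form began at -99 and box B forms at -70 and -44, all inside the neighbouring snoRNA gene C51F7.4, where the same box A form began at 10. C27H6.5 (V:9970228-9970428, minus strand) had a box A form alone, at -69. In ZK994.7 (V:8500458-8500658, plus strand) neither box form was found, and TGTCGGC began at -69. At B0334.12 (II:11484747-11484947, plus strand) the boxes ran the other way: a box B form began at 79 and a box A form at 124 on the strand opposite the gene, and a box A form at 179 on the gene's strand. None of the strings searched was found around the summit of W01C9.6 (II:8547061-8547261, plus strand). A match is a string of letters and was not tested as a binding site.

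The snoRNA genes carried summits far more often than other gene starts. The pooled list, which the authors called from both replicates together, had a summit within 200 bp of 158 of the 346 (45.7%, exact 95% interval 40.3 to 51.1), against 14.3% of all nuclear gene starts and 11.6% of the nuclear genome. The list of replicate 1 had one at 144 snoRNA genes (41.6%), against 14.3% of all starts. The list of replicate 2 had one at 156 (45.1%), against 13.9% of all starts. In the optimal list, the 407 peaks that passed the authors' threshold on reproducibility, 57 snoRNA genes had a summit (16.5%, 12.7 to 20.8), against 0.851% of all starts. The same shares at tRNA genes were 74.7% of 612 in the pooled list and 18.8% in the optimal list, so snoRNA genes were fewer in the pooled list and within the counting error of tRNA genes in the optimal list. At snRNA genes they were 47.3% and 10.1% of 129. At protein-coding starts they were 15.4% and 0.300%.

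Some neighbouring members shared a summit: the 158 genes had 153 different pooled summits and the 57 had 56. Another snoRNA gene started within 500 bp of 36 members, while a tRNA gene did so at 2 and an snRNA gene at 2. Of the 57 members with an optimal summit, 32 had no other annotated gene start within 200 bp of that summit. At 19 of them a gene of the general ncRNA class started there, at 3 a protein-coding gene and at 3 a pseudogene. With 1 group of 2 replicates there is no second condition to test, and all intervals cover counting error over genes alone.

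Introns hosted 178 of the 346, each lying whole inside an intron of a protein-coding transcript, in 157 different hosts. Of the other 168 members, 44 overlapped an exon of a protein-coding gene and 124 lay clear of protein-coding exons and introns. A pooled summit was found at 88 of the 178 intron-hosted members (49.4%, 41.9 to 57.0) and at 70 of the 168 others (41.7%, 34.1 to 49.5), and these intervals overlap. The optimal shares were 16.9% (11.7 to 23.2) at intron-hosted members and 16.1% (10.9 to 22.5) at the others. Introns at large carried summits less often: those without a small RNA gene had a pooled summit within 200 bp of their midpoint in 12.5% of 108627 and an optimal one in 0.069%. The other introns of the same hosts had shares of 13.1% and 0.295% of 1356. Of the 124 members outside coding genes, 60 had a pooled summit (48.4%, 39.3 to 57.5) and 22 an optimal one.

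The lowest share was that of members overlapping exons, of which 10 of 44 had a pooled summit (22.7%, 11.5 to 37.8). Exons covered 31 of the 44 whole, and 5 of those had a pooled summit and 1 an optimal one. The remaining optimal summits of this class lay at members that touch an exon by its edge: exons overlapped 4 members by 10 bases or fewer, and each of the 4 had an optimal summit. C51F7.4 was one of them, with 1 base in an exon of frm-7, and W01C9.6 was another, with 2 bases.

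Strand relative to the host was the same for 150 of the intron-hosted members and opposite for 28. A member on the opposite strand cannot be cut out of its host's transcript. Pooled summits were found at 18 of the 28 on the opposite strand (64.3%, 44.1 to 81.4) and at 70 of the 150 on the host's strand (46.7%, 38.5 to 55.0). Optimal summits were found at 6 of the 28 (21.4%, 8.30 to 41.0) and at 24 of the 150 (16%, 10.5 to 22.9). With 28 members the intervals are wide and overlap on both measures. The median pooled signal was 59.1 at members on the opposite strand that had a summit and 74.3 at those on the host's strand.

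**Figure D1:**
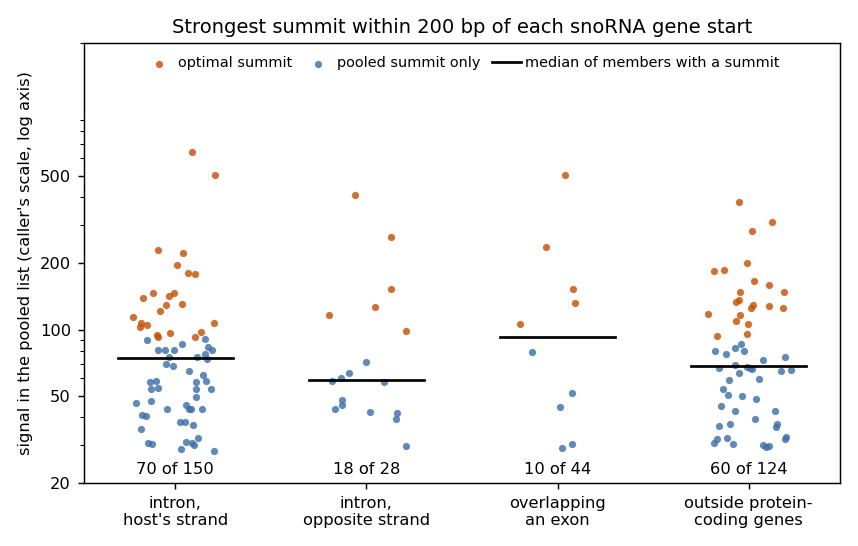
Signal of the strongest pooled summit within 200 bp of each snoRNA gene start, on the caller's own scale and a log axis, by position relative to protein-coding genes; each point is 1 gene, black lines are medians of genes with a summit, and the counts above the axis give genes with a summit of all in the class. The orange points, which also have an optimal summit, reach from 92.3 to 645 and occur in all 4 classes.

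The strongest member was ZK994.7 (V:8500579-8500645, plus strand), in intron 17 of pxn-1, a peroxidasin gene, on the host's strand. Its pooled signal was 645, with 360 in replicate 1 and 284 in replicate 2, and it ranked 1 of 30000 in each of the 3 lists. The summits lay at -21, -22 and -26, close together in all 3 lists. Its host's nearest annotated start was 5690 bp away.

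C51F7.3 (V:12303708-12303783, plus strand) in intron 4 of frm-7, a gene for a FERM domain protein, and its neighbour C51F7.4 (V:12303599-12303693, plus strand) shared the summit of rank 2. The shared pooled signal was 506, with 269 in replicate 1 and 238 in replicate 2. The pooled summit lay 22 bases into C51F7.4 and 87 bases before C51F7.3, so the peak lists cannot assign it to either gene.

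T03F7.8 (V:11314258-11314332, plus strand) in intron 7 of cutl-18, a cuticlin-like gene on the other strand, had a pooled signal of 408, with 204 in replicate 1 and 206 in replicate 2. Its summit lay at -29, between the start of its box A form and that of its box B form. W03C9.9 (II:11960898-11960959, plus strand) lies outside protein-coding genes and had a pooled signal of 381, with 198 in replicate 1 and 187 in replicate 2. Its summit at -94 was the farthest before the start among the 12 strongest members. B0334.12 (II:11484683-11484752, plus strand), in the first intron of twk-5, a potassium channel gene on the other strand, had a pooled signal of 263, with 143 in replicate 1 and 118 in replicate 2. Its summit lay at 164, past the end of the gene, beyond the forms on the opposite strand that began at 79 and 124 and before the form on its own strand at 179.

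W01C9.6 (II:8547209-8547338, plus strand) had a pooled signal of 238 with the summit at -48, C27H6.5 (V:9970204-9970271, minus strand, in unc-41, a synaptic vesicle gene) 229 at -57, and C10C6.8 (IV:11474059-11474191, minus strand, in catp-8, a cation-transporting ATPase gene) 222 at -24. At C10C6.8 the replicates placed the summit on different sides of the start, at 21 in replicate 1 and -83 in replicate 2. Members of the 12 outside protein-coding genes were also ZK265.10 (pooled signal 307), T19B4.8 (282) and Y23H5B.10 (201). On the strand opposite the host, the next strongest after T03F7.8 and B0334.12 were T04A8.17 in ppat-1 (153) and C04G6.12 in mpk-2, a MAP kinase gene (127).

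The optimal and other pooled members met at a pooled signal near 90. The lowest optimal members were W04D2.7 in inx-11 (92.6) and F19H8.6 in mltn-9 (92.3), and the highest without an optimal summit were T19C4.11 in gpa-1 (90.4) and C14C10.8 in ril-2 (89.9). F19H8.6 ranked 372 in both the pooled and the optimal list, and T19C4.11 ranked 410 in the pooled list. Members with an optimal summit and those with a pooled summit alone were thus parted by pooled signal. The median pooled signal at members with a summit was 69.6, against 37.5 over all 30000 pooled peaks. The median member with a summit stood at percentile 95.6 of the pooled list, 100 being the strongest peak.

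Optimal summits made up a larger share of members over 1000 bp from the host's start than of nearer members, while pooled summits showed no such order. Within 500 bp of the nearest annotated start of the host, 31 of 53 intron-hosted members had a pooled summit (58.5%, 44.1 to 71.9) and 6 an optimal one (11.3%, 4.27 to 23.0). Over 500 and up to 1000 bp away the counts were 11 pooled (40.7%) and 2 optimal (7.41%, 0.910 to 24.3) of 27. Over 1000 and up to 2000 bp away they were 22 pooled (55.0%) and 10 optimal (25%, 12.7 to 41.2) of 40. Over 2000 bp they were 24 pooled (41.4%) and 12 optimal (20.7%, 11.2 to 33.4) of 58. The intervals of the optimal shares overlap between all the distance classes, and the difference between near and far members was not tested. On the host's strand the split was wider. Optimal summits were found at 4 of 46 members within 500 bp (8.7%, 2.42 to 20.8) and 0 of 19 over 500 and up to 1000 bp (0 to 17.6). They were found at 9 of 36 over 1000 and up to 2000 bp (25%, 12.1 to 42.2) and 11 of 49 beyond (22.4%, 11.8 to 36.6). On the opposite strand the few members ran the other way, with optimal summits at 2 of 7, 2 of 8, 1 of 4 and 1 of 9 in the same classes. Midpoints of introns without a small RNA gene had pooled shares between 11.6% and 14.1% and optimal shares between 0.0285% and 0.157% in the same distance classes.

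**Figure D2:**
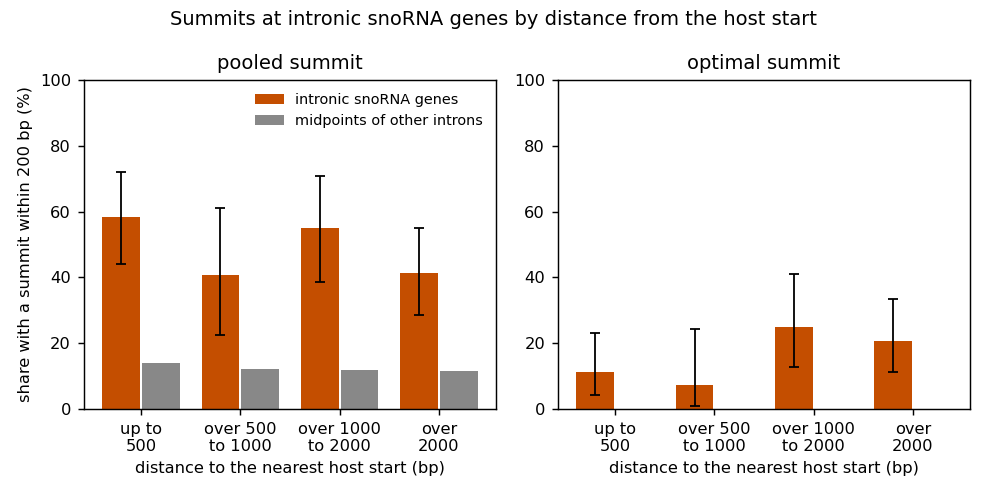
Share of intron-hosted snoRNA genes (orange) and of midpoints of introns without a small RNA gene (grey) with a pooled summit (left) or an optimal summit (right) within 200 bp, by distance to the nearest host start in bp; bars on the orange columns are exact 95% intervals of counting error. The orange columns stand between 40.7% and 58.5% for pooled summits and between 7.41% and 25% for optimal ones, and the grey columns on the right, at most 0.157%, are hardly visible.

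Among members on the host's strand, those with a summit, optimal or pooled alone, sat in shorter introns with less sequence after them than those with none. Members with an optimal summit had a median intron of 289 bp, with 148 bp before the member and 50 bp after it (24 members). Members with a pooled summit alone had a median intron of 280 bp, with 69.5 bp before and 63.5 bp after (46 members). Members with no pooled summit had a median intron of 885 bp, with 224 bp before and 398 bp after (80 members). The host's start lay a median of 1712 bp from optimal members, 482 bp from members with a pooled summit alone and 1298 bp from members with none.

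Hosts that make ribosomal proteins held 19 of the intron-hosted members, all on the host's strand and a median of 320 bp from the host's start. Of these, 14 had a pooled summit (73.7%, 48.8 to 90.9) and 2 an optimal one (10.5%, 1.30 to 33.1). Members in other hosts, a median of 1312 bp from the host's start, had a pooled summit at 74 of 159 (46.5%, 38.6 to 54.6) and an optimal one at 28 (17.6%, 12 to 24.4). This grouping by host name was chosen after the data were seen. The intervals of the pooled shares overlap, and none of the 19 had a box B form before its start, against 21 of the 159.

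Of the 17 hosts with more than 1 snoRNA gene, 6 had a pooled summit at every member, 9 at some and 2 at none. nol-56, which encodes a core protein of box C/D snoRNA particles, hosts K07C5.18, K07C5.10, K07C5.12 and K07C5.11 in introns 7, 6, 5 and 1. K07C5.12 alone had a pooled summit, with a signal of 53.9 at rank 4119, and K07C5.11 in the first intron had no summit in any of the 3 lists. rpl-6, a gene for a ribosomal protein of the large subunit, hosts R151.11, R151.12 and R151.13 in introns 1, 2 and 3. R151.11 had a pooled signal of 80.5, 166 bp from the start of rpl-6, with 61.9 in replicate 1 and 20.1 in replicate 2, and the other members had no summit in any list. top-2, which encodes a DNA topoisomerase, hosts K12D12.6, K12D12.7 and K12D12.8 in its intron 3, and they shared 1 pooled summit with a signal of 43.4.

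The rule admits only summits within 200 bp of the start, so closeness to the start is in part built in. Within that window optimal summits gathered on both sides of the start, more of them before it than after it, and the others were spread more widely. In the 57 optimal members its median position was -24 (quartiles -52 and 32), 35 of 57 summits lay before the start (61.4%), and 50 of 57 lay within 100 bp of it. In the 101 members with a pooled summit alone the median was 6 (quartiles -76 and 66), 48 lay before the start (47.5%), and 64 lay within 100 bp. Over all 158 the pooled median was -8.5, and the replicates' own lists gave -24 (replicate 1) and -4 (replicate 2). Among optimal summits the median was -22.5 at intron-hosted members and -26 at members outside introns, a gap far smaller than the distance between the quartiles. On the host's strand 18 of 24 optimal summits lay before the start (75%), and on the opposite strand 1 of 6 did (16.7%). In the pooled list 29987 of 30000 peaks were 376 bp wide. Of the 57 optimal peaks at snoRNA genes, 48 had this width too, the narrowest had 106 bp, and in 54 the summit lay within 10 bp of the centre of the peak.

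**Figure D3:**
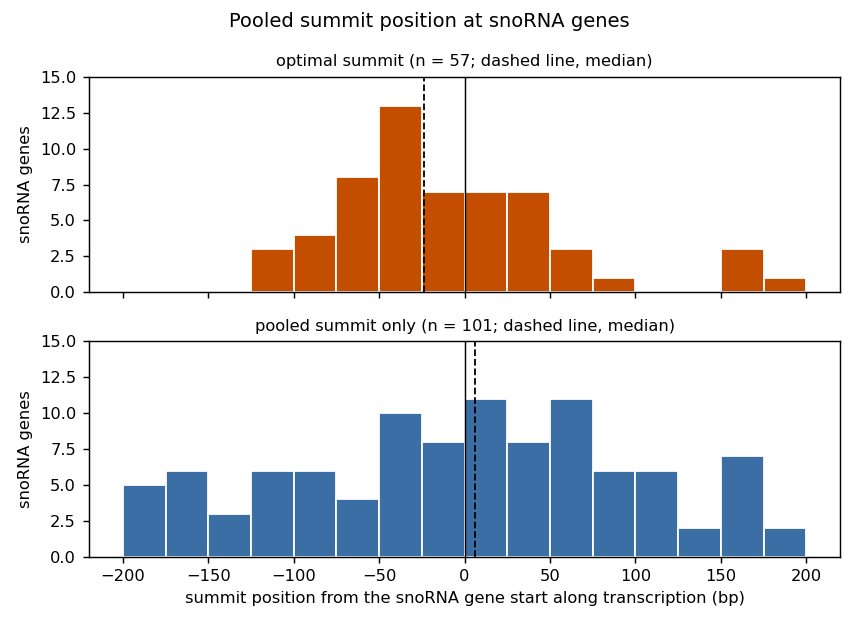
Position of the strongest pooled summit from the start of the snoRNA gene along its transcription, in bp, for members with an optimal summit (top) and with a pooled summit alone (bottom); column heights are numbers of genes in bins of 25 bp, the solid line is the gene start and dashed lines are medians. The optimal summits gather around their median of -24, and the others spread over the whole window around a median of 6.

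The box forms were found before the start of many of the strongly marked members and of few others. They were sought from 120 bases before the start to 20 bases into the gene, a window chosen after the sequences had been seen. On the gene's strand a box B form was present in 22 of 57 optimal members (38.6%), in 9 of 101 members with a pooled summit alone (8.91%) and in 6 of 188 with none (3.19%). On the other strand the counts were 0, 2 and 2. The same window on the gene's strand held a box B form in 1.06% of 19973 protein-coding genes and 1.26% of all nuclear genes. Either strand held one in 2.48% of all nuclear genes. At snRNA genes the share on the gene's strand was 9.3% of 129 (4.9 to 15.7), near the 10.7% of all 346 snoRNA genes. The form is therefore not particular to snoRNA genes. Box A forms on the gene's strand were present in 25 of 57 optimal members (43.9%), 12 of 101 with a pooled summit alone (11.9%) and 24 of 188 with none (12.8%), against 4.35% of protein-coding genes and 6.73% of all nuclear genes. On the other strand they were present in 8, 9 and 27, so the excess in optimal members lay on their own strand.

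Both boxes together were found on the gene's strand in 15 optimal members (26.3%), 3 with a pooled summit alone and 1 with none. Box A preceded box B, as it does inside tRNA genes. Box B forms of optimal members began at a median of -14, with 21 members between -30 and -1. Box A forms began at a median of -59.5, with 21 members between -75 and -45. From box A to box B there were 45 bp at the median in the 15 optimal members, with a range of 35 to 102. In 467 tRNA genes that held both the median was 44 bp, with a range of 36 to 94. Read inside the gene, 79.6% of the 612 tRNA genes held a box A form and 95.9% a box B form. Only 2 snoRNA genes had an annotated tRNA gene start within 500 bp, and no tRNA gene start lay within 200 bp of an optimal summit of a member. Pseudogene starts lay 1 bp from the optimal summit of T08B2.13, 29 bp from that of D1046.6 and 16 bp from that of F19H8.6. What kind of pseudogene these are was not looked up.

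**Figure D4:**
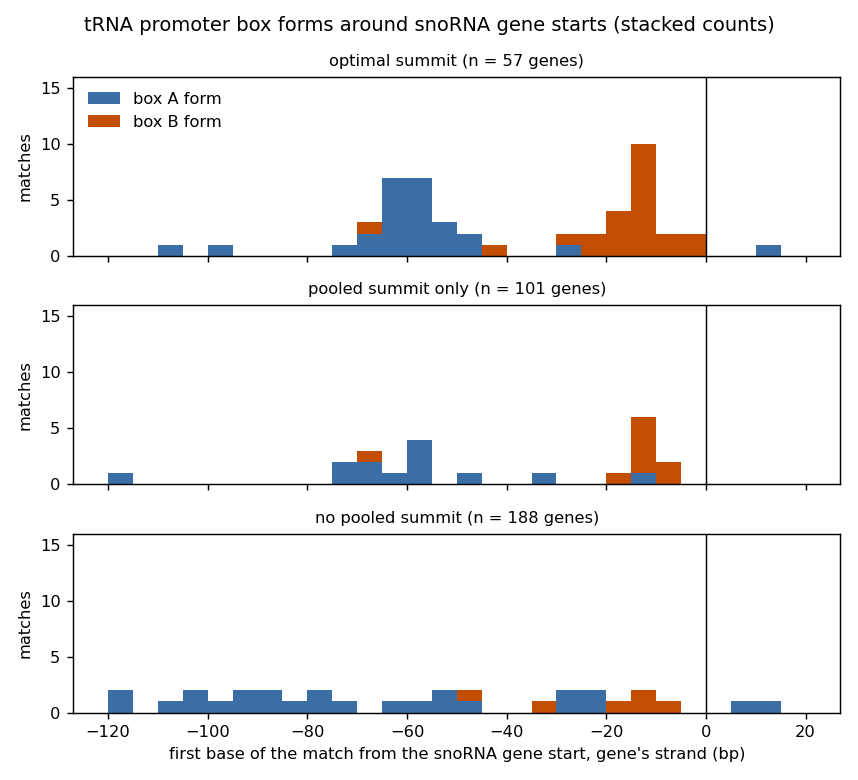
First base of box A forms (blue) and box B forms (orange) from the start of the snoRNA gene, in bp on the gene's strand, for members with an optimal summit (top), a pooled summit alone (middle) and no pooled summit (bottom); columns are stacked numbers of matches in bins of 5 bp. In the top panel box A forms gather around -59.5 and box B forms around -14; in the bottom panel box A forms are scattered, and the box B forms of 6 members have a median of -14 too.

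Read the other way, 37 of the 346 members had a box B form before the start and 309 did not. A pooled summit was found at 31 of the 37 (83.8%, 68.0 to 93.8) and at 127 of the 309 (41.1%, 35.6 to 46.8). An optimal summit was found at 22 of the 37 (59.5%, 42.1 to 75.2) and at 35 of the 309 (11.3%, 8.02 to 15.4). The separate replicate lists gave shares of 81.1% in replicate 1 and 86.5% in replicate 2 with the box. Without it they gave 36.9% in replicate 1 and 40.1% in replicate 2. These lists come from the same libraries as the pooled list, and the window was chosen after the sequences had been seen. They are therefore no independent check of the split by box B form. The median pooled signal at members with a summit was 116 with the box and 64.7 without it. Of the intron-hosted members with a box B form, 17 of 21 had a pooled summit and 11 an optimal one, and of those outside introns 14 of 16 and 11 did. Measured from the first base of the box B form, the median summit stood at -21.5 bp in the 22 optimal members and at -35 bp in 113 tRNA genes with an optimal summit.

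The strings GGAACCC and TGTCGGC were found in a different set of members. Among those without a box B form, 37 had one of these strings on the gene's strand in the same window. A pooled summit was found at 27 of them (73.0%, 55.9 to 86.2) and an optimal one at 11 (29.7%, 15.9 to 47.0). Their summits lay further along the gene, at a median of 44 (quartiles -8 and 97), against -30 (quartiles -53.5 and 19.5) in members with a box B form. The 272 members with neither had a pooled summit at 100 (36.8%, 31.0 to 42.8) and an optimal one at 24 (8.82%, 5.74 to 12.8). GGAACCC was present in 6.07% of all members, 24.0% of snRNA genes and 0.303% of all nuclear genes in that window, and TGTCGGC in 6.65% of members and 0.499% of all nuclear genes. The strings had been picked from strong members, so these counts describe them and support nothing.

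Base composition moved with the summits. The 100 bases before the gene had a median GC content of 55% in optimal members, 47% in members with a pooled summit alone and 39% in members with none, against 31% over all nuclear genes. Where that content was 50% or more, a pooled summit was found at 87 of 116 snoRNA genes (75%, 66.1 to 82.6) and at 43.4% of 1839 other nuclear genes, and an optimal one at 47 (40.5%, 31.5 to 50) and at 4.79%. Where it was under 40%, the pooled shares were 19.8% of 126 snoRNA genes and 10.4% of 37682 other genes, and the optimal shares were 1.59% and 0.385%. snoRNA genes had higher shares than the other nuclear genes in both of these classes of composition. Between 40% and 50% they did too (44.2% of 104 against 25.8% of 7022 for pooled summits). tRNA genes had higher pooled shares than snoRNA genes under 40% (64.8%) and between 40% and 50% (82.1%). At 50% or more their pooled share was 79.3% (69.6 to 87.1), within counting error of the 75% at snoRNA genes. Optimal shares of tRNA genes were 10.1%, 23.1% (against 7.69% at snoRNA genes) and 29.3% (20.3 to 39.8) in the same order. Only at 50% or more was the optimal share higher at snoRNA genes, and those intervals overlap. Within the class of 50% or more, members with a box B form had a pooled summit at 24 of 26 and an optimal one at 19 (73.1%, 52.2 to 88.4). Members without it had 63 of 90 and 28 (31.1%, 21.8 to 41.7). This split used the same window for the box, chosen after the sequences had been seen.

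Other features of the genes also differed by summit. Optimal members were short, with a median length of 87 bp, against 127 bp with a pooled summit alone and 136 bp with none. A run of 4 T, the signal at which RNA polymerase III is known to stop, followed within 30 bases of the annotated end in 46 of 57 optimal members (80.7%), 54 of 101 with a pooled summit alone (53.5%) and 83 of 188 with none (44.1%). It followed 98.9% of tRNA genes and 46.2% of all nuclear genes. The box D letters CTGA stood in the last 15 bases of 25 optimal members (43.9%), 28 with a pooled summit alone (27.7%) and 24 with none (12.8%). ACA at the place typical of H/ACA RNAs, 3 bases before the end, was found in 15 optimal members (26.3%), 26 with a pooled summit alone (25.7%) and 17 with none (9.04%). The shares of CTGA and ACA at these places over all nuclear genes were not counted. The GC box GGGCGG, the element that Sp proteins of mammals bind, stood on either strand of the window before the gene in 8 optimal members (14%), 11 with a pooled summit alone (10.9%) and 8 with none (4.26%), against 4.32% of protein-coding genes. In the 100 bases on either side of the pooled summit, on either strand, optimal members held a box A form in 61.4%, a box B form in 42.1% and the GC box in 12.3%, against 24.5%, 6.15% and 5.46% of all 30000 pooled summits. CACCC (26.3% and 17.2%), GAGAGA (22.8% and 14.7%) and TATAAA (24.6% and 14.8%) differed by fewer percentage points than the box A and box B forms. The interval at optimal members covered the share of all pooled summits for the GC box (5.08 to 23.7) and CACCC (15.5 to 39.7). It did so for GAGAGA (12.7 to 35.8) and TATAAA (14.1 to 37.8) too, so these differences were within counting error. Over all 407 optimal summits, those at snoRNA genes included, the shares were 44.5% for box A, 31% for box B, 12.3% for the GC box, 25.1% for CACCC, 27% for GAGAGA and 14.7% for TATAAA. The shares of the GC box and CACCC at optimal snoRNA genes were thus close to those of all optimal summits, and that of GAGAGA was lower by less than its counting error.

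The C51F7.3 gene itself, shown for its box C (TGATGA) and box D (CTGA) letters in capitals, was one of 6 optimal members with both. These were 10.5% of the 57 (3.96 to 21.5). Both were found in 3 of 101 members with a pooled summit alone (2.97%) and 5 of 188 with none (2.66%). Over all 346 members they were found in 14 (4.05%). ZK994.7, the strongest, had the box D letters alone.
C51F7.3: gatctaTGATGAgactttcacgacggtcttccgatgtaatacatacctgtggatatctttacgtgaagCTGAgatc
ZK994.7: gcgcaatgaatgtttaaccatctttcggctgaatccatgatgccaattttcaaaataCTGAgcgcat

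Of the 346 members, 108 had a summit in both replicate lists (31.2%), 36 in replicate 1 alone, 48 in replicate 2 alone and 154 in neither. The share of all nuclear gene starts in both lists was not counted, and it cannot exceed the 13.9% found for replicate 2. Of the 57 optimal members 55 were in both lists. Of the 158 members with a pooled summit, 106 were in both lists, 46 in 1 and 6 in neither.
The replicates ranked the strong members alike and the weak ones less so. Across the 108 members in both lists Spearman's rho of the signal was 0.79, over 55 optimal members it was 0.75, and over the other 53 it was 0.28. The optimal members are also those of highest pooled signal, so this split is one by signal. It is a description, and all members share the same libraries and control. The replicates' summits lay a median of 24 bp apart in optimal members and 57 bp in the others.

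**Figure D5:**
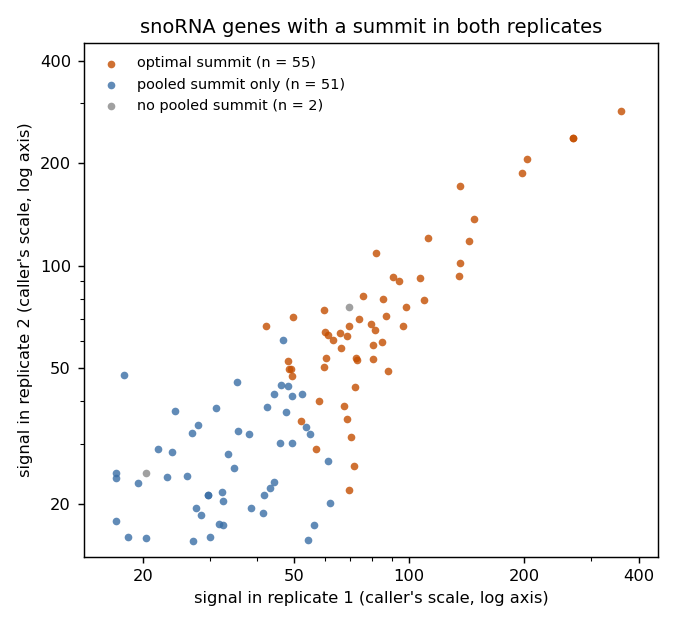
Signal of the strongest summit within 200 bp in replicate 1 (horizontal) and replicate 2 (vertical) for the 108 snoRNA genes with a summit in both lists, on the caller's scale and log axes; each point is 1 gene. The optimal members extend along the diagonal up to 360 and 284, and the members with a pooled summit alone form a cloud at low signal.

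The members whose rank differed most between the replicates all lacked an optimal summit. Their pooled signals were at most 73.8, below the 92.3 of the lowest optimal member. Y71F9AM.7 in cogc-3 stood at percentile 98.6 of replicate 1 (signal 54.2) and 3.5 of replicate 2 (15.7), with summits on different sides of its start. Y71D11A.7 in acsd-1 stood at percentile 11.0 in replicate 1 (17.9) and 98.8 in replicate 2 (47.8). F12F6.11, outside coding genes, stood at 98.9 in replicate 1 and 21.1 in replicate 2, and K11H12.13 in rpl-15 at 80.4 and 7.1. The strongest members without an optimal summit by mean percentile were Y43F8C.22, C16A3.11 in rps-13, Y37E3.20 in pcyt-2.1 and B0041.9 in rpl-4. The last 3 had pooled signals of 70.1, 85.7 and 80.9. Y43F8C.22 is described with the other observations.

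On the X chromosome 8 of 33 members had a pooled summit (24.2%, 11.1 to 42.3) and 1 an optimal one. On the autosomes 150 of 313 had a pooled summit (47.9%, 42.3 to 53.6) and 56 an optimal one, and the pooled shares of single autosomes ran between 41.9% and 56.3%. The optimal counts on the autosomes were 12 of 74 on I, 17 of 71 on II, 4 of 54 on III, 10 of 59 on IV and 13 of 55 on V. Shares of all gene starts by chromosome were not counted, so whether the low share on X is particular to snoRNA genes is unknown. Few members had sequence that recurs elsewhere in the genome. In 6 of the 57 optimal members, 13 of the 101 with a pooled summit alone and 30 of the 188 with none, any 36-base string of the gene and its 100-base flanks occurred more than once, and in 0, 0 and 8 of them over 50% of such strings did.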

How the data were processed

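ChIP-seq peak lists were used for 1 group of 2 biological replicates. Each replicate list was called by the authors on that replicate against a control, per the deposited descriptions. The pooled list was called on both replicates against the control, and the optimal list keeps calls that pass a limit on irreproducible discovery. For aligner, caller and versions: not given in the sources used here. Each peak's signal is a deposited score on the caller's scale and was compared only within a list. The deposited summit is another value, an offset from the peak's start. All 407 optimal peaks occur in the pooled list with the same summit and score. Depth is unknown, and peaks of untagged worms were not analysed here. Fragments were of 200 to 800 bp, per the labels.

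Genes came from Ensembl release 115 and bases from RefSeq, both on WBcel235, the assembly the labels call ce11. A member was intron-hosted when it lay whole in an intron of a protein-coding transcript, a host on its own strand being preferred. Shares have exact (Clopper-Pearson) 95% intervals. No test was made, since there is no second group. The labels number biological replicates but do not say how cultures were kept apart. The matching of summits was tested on simulated data, and 98 of 98 planted summits were found at their offset. Python 3.11.15, NumPy 2.4.6, pandas 2.3.3 and SciPy 1.17.1 were used.

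The members, motifs and comparisons were chosen with earlier results of these data known. Named members are the 12 of highest pooled signal, the 4 highest on either strand of a host and outside introns, the 4 that differ most between replicates, the 4 highest without an optimal summit, and those in hosts of at least 3 members. The members on both sides of the optimal threshold were added. Alternatives varied the list, window and class, and the closing part gives their effect.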

Additional observations from a re-analysis of the deposited data

How the results depend on the processing

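Of 49 alternatives to 9 results, 18 moved a value by less than the spread between the replicate lists or a count by no more than 1.5 times, 30 moved it by more, and 1 turned its sign. The share of all snoRNA genes with a pooled summit, 45.7%, was 33.8% in a window of 100 bp, 61.6% in 500 bp, 30.6% with the 5000 strongest peaks, 16.5% with the optimal list and 50.6% with summits near any base of the gene. In the same order the share at intron-hosted members, 49.4%, was 35.4%, 69.7%, 33.1% and 16.9% under the first 4. At members outside introns, 41.7%, it was 32.1%, 53.0%, 28.0% and 16.1%, with 42.9% when an intron had to be one in every transcript and 40.4% without members near a protein-coding start. Intron-hosted members thus kept the higher share under each of these. The members outside introns include the 44 that overlap an exon, of which 22.7% had a pooled summit. The 124 outside coding genes had a pooled share of 48.4%, near that of intron-hosted members, and an optimal share of 17.7%, above the 16.9% of intron-hosted members. Leaving out a replicate gave 41.6% to 45.1% of all members, 44.4% to 50.6% of intron-hosted ones and 38.7% to 39.3% of the others, a median summit at -24.0 to -4.0 and a median signal of 32.1 to 46, on scales that differ between lists. The median position of -8.5 was -24.0 in the optimal list and turned to 10 with summits near any base of the gene, which by construction admits summits past its end. The 108 members in both replicates became 72 in a window of 100 bp and 168 in 500 bp. Chosen after seeing the data, the share with a pooled summit among members with a box B form, 83.8%, was 78.4% in a window of 100 bp, 59.5% with the optimal list, 81.1% to 86.5% leaving out a replicate and 76.7% in a wider search for the box. Without the box, 41.1%, it was 28.5% in 100 bp, 11.3% with the optimal list and 36.9% to 40.1% leaving out a replicate. No paired analysis was possible because the labels give 1 group. Depth is unknown, and a member without a summit may lie below the weakest peak of lists that hold 30000 each.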

Other observations

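Y43F8C.22 (V:19643050-19643187, minus strand), in an intron of Y43F8C.7 and with box A and box B forms before its start, had strong summits in both replicates and none in the pooled list. Its signal was 69.4 in replicate 1, rank 135, and 75.5 in replicate 2, rank 46, with summits at -27 and -20. The nearest pooled summit lay 6088 bp from its start, with a signal of 29 at rank 27630. No 36-base string of the gene and its flanks recurred in the genome. The same was rare elsewhere: of the 500 strongest peaks of replicate 1, 438 had a replicate 2 summit within 200 bp, and 4 of these had no pooled summit within 200 bp. Counting of members from the pooled or optimal list alone therefore misses this gene. The cause was not tested.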
